A study of Mus musculus with 6 samples.

Results

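The nuclei described here were chosen from single-nucleus RNA profiles of whole mouse retina by a gate on rod genes. A barcode was taken as a rod-gated nucleus when it had at least 300 genes, at most 5% of its unique molecular identifiers (UMIs) in mitochondrial genes, at least 1 UMI in at least 4 of the 11 genes Cnga1, Nrl, Nr2e3, Pde6a, Pde6b, Cngb1, Samd7, Samd11, Esrrb, Rom1 and Reep6, and at most 1 UMI in all over 13 genes of cones, bipolar cells, amacrine cells, horizontal cells, ganglion cells and Müller glia (Arr3, Pde6c, Gnat2, Trpm1, Grm6, Grik1, Slc1a3, Gad1, Gad2, Slc6a9, Rbpms, Slc17a6 and Lhx1). The gate took 15447 nuclei, which were 28.0% of the 55230 nuclei kept on genes and mitochondrial share, out of 62893 barcodes. The retinas came from wild-type C57BL6/J mice aged 3 months or 18 months, with 3 libraries at each age, and age was the only factor named. All libraries were made from isolated nuclei with the 10x Chromium 3' v3.1 kit. The labels do not say whether a library held 1 retina or several, or whether the libraries came from separate animals, so the tests below measure only the spread between libraries. The labels name no treatment for these 6 libraries.

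Rods are the photoreceptors of dim-light vision and the most numerous cells of the mouse retina. Absorbed light activates the G protein transducin, which switches on a cGMP phosphodiesterase. The fall in cGMP closes the cation channel built from the Cnga1 and Cngb1 subunits, and the cell releases less glutamate from its ribbon synapse. Arrestin and calcium feedback through recoverin and the guanylate cyclase activating proteins end the response. The transcription factors CRX, NRL and NR2E3 set the rod programme, largely through sites close to the start of rod genes.

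Promoter letters are shown for 3 genes of rod phototransduction and retinoid handling that hold a CRX-type site and for 2 of the genes with the largest rise at 18 months described below. Each run is the 250 bases before the RefSeq start of the gene, read 5′ to 3′ on the gene's strand (GRCm38.p6). Capitals mark TAATCC or its reverse complement GGATTA, the core bound by homeodomain factors of the CRX type, and TGCTGA or its reverse complement TCAGCA, a partial site of the NRL type, searched on both strands with no overlap between them in these runs. Rbp3 (interphotoreceptor retinoid-binding protein) lies on the plus strand at chr14:33953753-33954002, Sag (rod arrestin) on the plus strand at chr1:87803430-87803679, and Gngt1 (the gamma subunit of rod transducin) on the plus strand at chr6:3993758-3994007. Dpp10, an accessory subunit of Kv4 potassium channels, lies on the minus strand at chr1:124045560-124045809 and Glb1l3, a galactosidase-like gene, on the minus strand at chr9:26860824-26861073.
Rbp3: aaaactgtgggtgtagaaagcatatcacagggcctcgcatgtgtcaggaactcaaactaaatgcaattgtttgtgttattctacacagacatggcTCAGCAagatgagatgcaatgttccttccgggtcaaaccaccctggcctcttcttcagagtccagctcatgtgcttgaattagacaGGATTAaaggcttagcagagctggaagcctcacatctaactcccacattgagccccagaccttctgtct
Sag: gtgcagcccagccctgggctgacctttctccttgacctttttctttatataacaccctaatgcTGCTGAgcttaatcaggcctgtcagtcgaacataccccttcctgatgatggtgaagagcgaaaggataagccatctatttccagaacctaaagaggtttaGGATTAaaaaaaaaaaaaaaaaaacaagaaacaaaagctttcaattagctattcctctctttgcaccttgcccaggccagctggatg
Gngt1: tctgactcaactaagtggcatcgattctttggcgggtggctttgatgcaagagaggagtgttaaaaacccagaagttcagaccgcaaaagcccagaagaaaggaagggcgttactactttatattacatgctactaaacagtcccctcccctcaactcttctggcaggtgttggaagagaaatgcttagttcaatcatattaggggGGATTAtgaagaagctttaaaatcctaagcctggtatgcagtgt
Dpp10: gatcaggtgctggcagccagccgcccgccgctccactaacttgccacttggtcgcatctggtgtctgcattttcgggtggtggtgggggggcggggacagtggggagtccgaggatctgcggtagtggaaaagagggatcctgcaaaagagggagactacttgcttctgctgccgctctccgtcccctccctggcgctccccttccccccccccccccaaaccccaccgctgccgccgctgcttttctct
Glb1l3: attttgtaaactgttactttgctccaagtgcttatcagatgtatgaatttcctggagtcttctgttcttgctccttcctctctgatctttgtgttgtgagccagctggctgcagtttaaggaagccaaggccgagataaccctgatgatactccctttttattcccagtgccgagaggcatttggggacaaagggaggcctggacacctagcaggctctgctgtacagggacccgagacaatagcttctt
The first TAATCC-type match stood 69 bases before the start in Rbp3, 87 in Sag and 44 in Gngt1, and neither Dpp10 nor Glb1l3 held a match to either motif in this window. Among all 32851 promoters of the table, 6.25% held TAATCC and 16.1% held TGCTGA. Of the 35 genes of the lists on transduction, its shut-off and the outer segment, 25 had an entry. Their 26 promoters held TAATCC in 9 (34.6%) and TGCTGA in 3 (11.5%). The TAATCC matches were 3 of 6 promoters of the transduction list, 5 of 8 of the shut-off list and 1 of 12 (8.33%) of the disc and outer segment list. Of the 12 genes taken below for the largest rise, 8 had an entry, with TAATCC in 0 and TGCTGA in 1 of 10 promoters, and of the 12 for the largest fall 10 had one, with TAATCC in 1 and TGCTGA in 2 of 11. These matches are letters in a window and not measured binding.

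Gated nuclei numbered 862, 3068 and 2036 in 3-month replicates 1, 2 and 3 and 1137, 5469 and 2875 in 18-month replicates 1, 2 and 3. All values below are given in that order. They carried between 1407387 and 6034270 UMIs per library, with a median of 851 to 1382.5 UMIs per nucleus. At the edge of the gate, 4615 members (29.9%) had exactly 4 gate genes, and 6649 (43.0%) had the 1 permitted UMI of an exclusion gene. Another 1672 (10.8%) also passed the cone, rod bipolar or Müller glia gate used for comparison. The libraries shared 29 rod barcodes over 15 pairs, at most 8 in a pair. Y-linked Kdm5d, Eif2s3y, Uty and Ddx3y were counted in rod-gated nuclei of all 6 libraries.

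The gate did not hold rods equally well in all libraries. A set of 30 rod genes that the gate does not use (the 30 rod genes below) made up 3.14%, 8.13% and 6.70% of gated UMIs at 3 months and 2.97%, 4.63% and 2.47% at 18 months, against 1.0% to 1.96% in nuclei that passed no gate. A list of 24 long neuronal genes of the inner retina, among them Csmd1, Nrxn3, Kcnip4 and Rbfox1, made up 3.41%, 1.5% and 1.73% of gated UMIs at 3 months and 2.15%, 1.42% and 4.45% at 18 months, against 4.53% to 5.59% in nuclei that passed no gate. On the inner retina genes 2 libraries stand apart, 18-month replicate 3 and 3-month replicate 1. On the 30 rod genes 18-month replicate 1 (2.97%) lay below 3-month replicate 1 (3.14%). In 18-month replicate 3 the gated nuclei resembled the ungated nuclei of that library, with a correlation across 13785 genes of 0.991, against 0.872 to 0.970 in the other 5. In 3-month replicate 1 that correlation was 0.970. A genes-by-genes correlation describes 2 profiles of 1 library, which share its depth and free RNA. For this reason the members are called rod-gated nuclei and not rods, and counts of calls are given with and without these libraries.

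**Figure D1:**
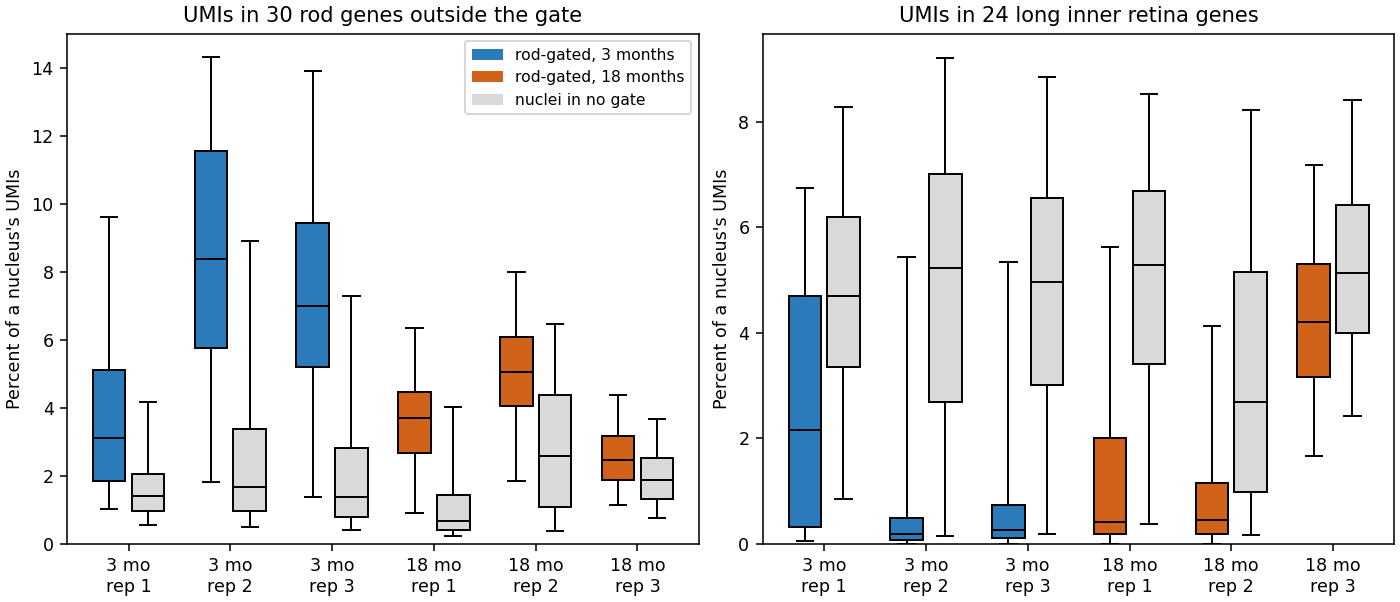
Percent of each nucleus's UMIs in the 30 rod genes outside the gate (left) and in the 24 inner retina genes (right), by library. Boxes span the 25th to 75th percentile with the median as a line, whiskers run from the 5th to the 95th percentile, coloured boxes are rod-gated nuclei and grey boxes nuclei in no gate. The box of rod-gated nuclei in 18-month replicate 3 lies near the grey box of the same library in both panels.

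The members varied along the gate itself. Among nuclei with 4 gate genes, just inside the limit, the 30 rod genes held 2.20%, 4.50% and 3.68% of UMIs at 3 months and 2.33%, 3.99% and 2.27% at 18 months. Just outside it, nuclei with 3 gate genes gave 1.88%, 2.95% and 2.73%, then 1.58%, 3.11% and 2.12%. Nuclei with 9 or more gate genes gave 4.78%, 10.6% and 9.26%, then 3.14%, 5.18% and 2.97%. The values went up in steps with no gap at the limit, and in 18-month replicate 3 the step from 3 gate genes to 9 or more was the smallest of the 6. The inner retina genes went the other way and still held 3.18% of UMIs in nuclei of 18-month replicate 3 with 9 or more gate genes, against 0.486% to 1.65% in the other libraries. These are descriptions, since the number of gate genes chose the nuclei.

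**Figure D2:**
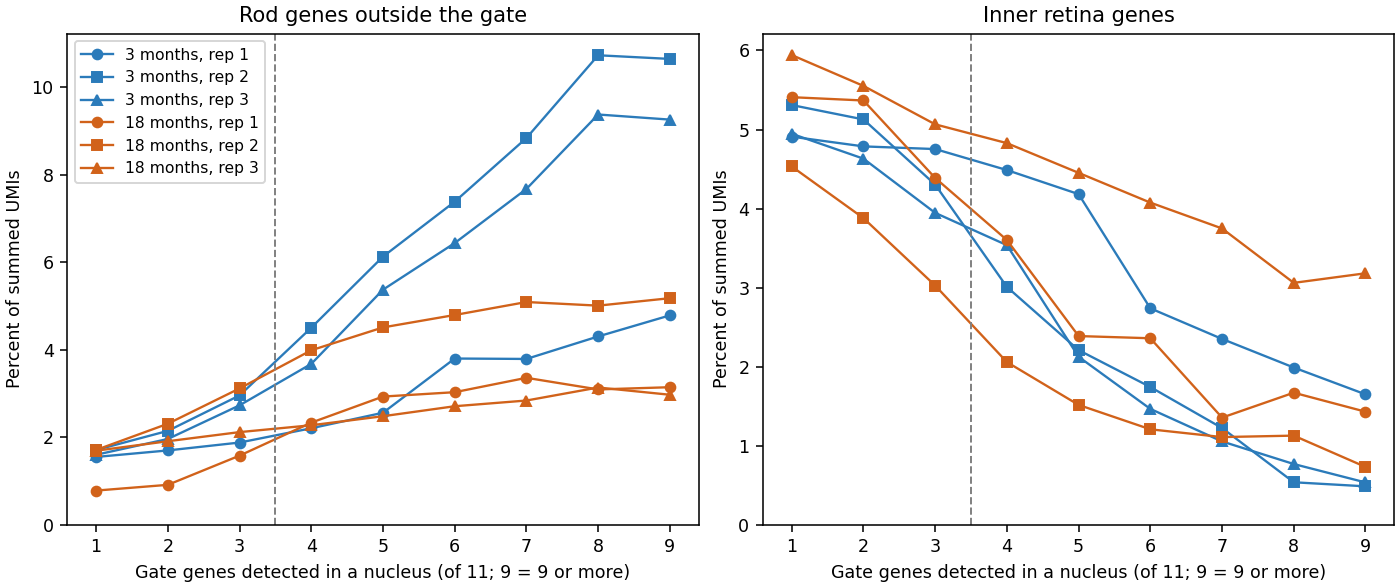
Percent of summed UMIs in the 30 rod genes (left) and in the inner retina genes (right) against the number of gate genes detected in a nucleus, one line per library. The dashed line is the limit of the gate, and the last point pools 9 or more genes. The 2 lines that reach 10.6% and 9.26% are 3-month replicates 2 and 3.

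UMIs of rod genes were present in nuclei of every class. After thinning each nucleus to 500 UMIs, a UMI of Pdc, which encodes phosducin and is not in the gate, was found in 45.0%, 90.8% and 85.2% of rod-gated nuclei at 3 months and 44.1%, 70.6% and 47.9% at 18 months. In nuclei with no gate the shares were 26.4%, 53.8% and 45.2%, then 17.1%, 47.8% and 39.0%, and in Müller glia-gated nuclei, which should lack the gene, 20.2% to 60.6%. Without thinning the rod-gated shares were 74.2% to 98.1% and the ungated ones 55.7% to 92.1%, at median depths of 851 to 1382.5 and 1186 to 3189 UMIs, and no nucleus was too shallow for the thinning. In thinned counts the gap between rod-gated and ungated nuclei was narrowest in 18-month replicate 3. Kcnip4, a Kv4 channel subunit of inner retina neurons and one of the 24 genes, gave 30.5%, 12.6% and 15.7% of rod-gated nuclei, then 23.1%, 19.9% and 79.0%, which places 18-month replicate 3 beside its own ungated nuclei at 83.8%. The cone arrestin Arr3, an exclusion gene, was found in 2.2% to 4.3% of rod-gated nuclei and in 46.4% to 88.6% of cone-gated ones.

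Marker sums described the gated nuclei in the same way. The 6 rod markers Cnga1, Nrl, Nr2e3, Pde6b, Samd7 and Esrrb, all of them gate genes, summed to 2923, 8179 and 5934 CPM (counts scaled to a fixed total per library) at 3 months and 3648, 4488 and 2794 at 18 months, against 1059 to 1665 in ungated nuclei, and none was at 0. Cone markers summed to 1022 to 1657 CPM, rod bipolar markers to 560 to 700 at 3 months and 992 to 1227 at 18 months, cone bipolar markers to 186 to 442 and amacrine markers to 326 to 950. Müller glia markers summed to 673 to 1540 CPM with 1 of their 10 genes at 0, and markers of horizontal cells, ganglion cells, microglia, vessels and pigment epithelium to 302 to 494, 396 to 818, 102 to 215, 53 to 217 and 16 to 288 CPM. Rod bipolar markers (higher) and horizontal cell markers (lower at 18 months) did not overlap between the ages, and the part of such RNA in the differences below was not tested. Beside other gates the mean CPM over 6 libraries of Cnga1 was 1685 in rod-gated, 1013 in cone-gated, 595 in rod bipolar-gated and 495 in Müller glia-gated nuclei. Sag, used by rods and cones alike, stood at 4482 in rod-gated and 4589 in cone-gated nuclei.

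To compare the ages with the least inner retina RNA, a subset of inner-poor nuclei was taken, in which the 24 inner retina genes held at most 1% of UMIs. They numbered 343, 2544 and 1583 at 3 months and 780, 3933 and 33 at 18 months, or 9216 in all (59.7%), so 18-month replicate 3 kept 1.15% of its gated nuclei and 45992 UMIs. In them the 30 rod genes held 6.06%, 10.2% and 9.05% of UMIs at 3 months and 4.05%, 5.54% and 4.93% at 18 months. The subset was chosen after the libraries had been compared, and values of the 24 genes within it follow from the choice.

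A fit of age alone called no gene in rod-gated nuclei. edgeR's quasi-likelihood test on summed counts called 0 of 13785 genes at an adjusted p of 0.05 or less (0% higher and 0% lower), 378 genes had an unadjusted p under 0.05, and the smallest adjusted p was 0.932. DESeq2 called 25 genes, 20 of them higher at 18 months. On simulated counts the edgeR test with age alone recovered 1 of 95 genes changed 2-fold and 43 of 93 changed 4-fold. The simulation gave all genes the common dispersion estimated from these libraries (0.158). It held no difference between releases and did not cover the inner-poor nuclei. With the Cell Ranger release that made each matrix as a second term (7.1.0 for replicate 1 of each age, 7.2.0 for the others, which names a software version and no preparation batch), 0 genes were called and 1737 had an unadjusted p under 0.05. In the inner-poor nuclei with age alone 0 of 10713 genes were called, and with the release as a term 1441 were called (13.5%), 559 higher (5.22%) and 882 lower (8.23%) at 18 months. Levels in the inner-poor nuclei did not overlap between ages for 3.65% of genes in the higher and 6.61% in the lower direction. Without 18-month replicate 3 the last fit called 928 genes (3.5% higher and 4.38% lower), 897 of them shared with it. Without 3-month replicate 1 it called 1505 genes (7.23% and 5.81%), 1086 of them shared. In that fit 18-month replicate 1 is the only 7.1.0 library, so the release term takes it up. The age difference then compares replicates 2 and 3 of each age alone. Without both libraries only 18-month replicate 2 is left to inform the 18-month side. The count of calls of that fit is therefore listed only among the processing settings below and is not read as a result. The age-only fit of all gated nuclei without both called 0 genes, with 1790 at an unadjusted p under 0.05. Below, a gene is said to have risen or fallen only when it passed in the inner-poor nuclei with the release as a term, a fit added after the others had been seen. For every gene given with an adjusted p of that fit, the value over the 25 or 26 alternatives to the age-only fit ran up to 0.999985. Of 55 genes named below that lie outside the gate and passed, 37 also passed without 18-month replicate 3. When 3-month replicate 1 was left out, 45 passed. All 55 kept their direction in these fits and in the fit without both libraries. These fits reuse counts of the fit that the 55 genes had passed, so neither passes nor directions are separate support.

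The genes of rod phototransduction had lower fitted levels at 18 months, and 4 of the 6 outside the gate fell in the inner-poor nuclei, a count that rests on 18-month replicate 3. In all gated nuclei these 6 had a median log2 difference of −1.10 beside −0.04 over all genes tested, each with a lower fitted level, and 1 did not overlap between ages against 3.42% of all genes. The inner-poor nuclei gave a median of −1.16 beside −0.06, again with all 6 lower. Over all genes 8.23% fell in that fit, and 7374 of 13785 had a lower fitted level in all gated nuclei. Among the 4 that fell were Gnat1, Pde6g and Slc24a1. Without 18-month replicate 3, 0 of the 6 passed (median −1.04), and without 3-month replicate 1, 3 did (median −1.23). No test is given for the 4 gate genes of the list.

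Markers of other cells moved in the same fit. Of 8 markers of the pigment epithelium 4 could be tested, and all 4 fell (median −2.02), while their levels overlapped between ages. Ttr, which encodes transthyretin, fell by 1.90 (adjusted p = 0.000179). In all gated nuclei the 8 markers summed to 15.6, 123.05 and 288 CPM at 3 months and 46.5, 47.2 and 156 at 18 months, with 4 of them at 0 in 3-month replicate 1 and 1 in 18-month replicate 1. Ungated nuclei gave 12.8, 65.9 and 134, then 76.4, 30.2 and 138. Of the 8 cone markers outside the gate 3 fell and 2 rose (median −0.61), where 8.23% of all genes fell and 5.22% rose. The part of this RNA in the differences of the rod genes was not tested.

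Gnat1, the alpha subunit of rod transducin, gave 1670, 3961 and 2388, then 1151, 1719 and 927 normalised CPM (CPM with the library size scaled by edgeR's TMM factor) in all gated nuclei, a log2 difference of −1.08 ± 0.49 (SE, n = 3 libraries per age, adjusted p = 0.932). Selected for little inner retina RNA, the nuclei gave 3053, 5183 and 3568, then 1610, 2101 and 1637, with no overlap between the ages, and Gnat1 fell there by 1.11 ± 0.33 on the log2 scale (adjusted p = 0.0178). It did not pass without 18-month replicate 3 (−1.01, adjusted p = 0.0731) or without 3-month replicate 1 (−1.14, adjusted p = 0.0568). Its partner subunit genes Gnb1 and Gngt1 did not pass, with log2 differences in that fit of −0.79 and −1.0 (adjusted p = 0.136 and 0.069).

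The inhibitory phosphodiesterase subunit Pde6g showed how far the libraries themselves differ. Its normalised CPM was 543, 6548 and 4305 at 3 months and 377, 2568 and 1265 at 18 months. Replicate 1 was the lowest library at both ages, and the log2 difference was −0.52 between the replicate 1 libraries and −1.56 between the others. Pde6g fell in the inner-poor nuclei by 1.2 ± 0.35 on the log2 scale with the release as a term (adjusted p = 0.0158), while its levels of 906, 8606 and 6360, then 534, 3159 and 2429 overlapped. Cnga1, the channel subunit and a gate gene, gave 681, 4785 and 2535, then 667, 1314 and 908 in all gated nuclei. Its difference was −0.03 between the replicate 1 libraries and −1.67 between the others, so it was not seen within the 7.1.0 pair. Cnga1 levels in the inner-poor nuclei were 1464, 6486 and 3947, then 949, 1626 and 913, values of a gene that chose the nuclei. Slc24a1, the sodium, calcium and potassium exchanger of the rod outer segment, gave 706, 2124 and 1177, then 662, 730 and 512 in all gated nuclei. It fell by 1.34 in the inner-poor nuclei (adjusted p = 0.00285), where its ages did not overlap. Without 18-month replicate 3 neither Pde6g (−1.05, adjusted p = 0.0805) nor Slc24a1 (−1.03, adjusted p = 0.056) passed.

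Among the 11 genes of shut-off and calcium feedback, 10 had a lower fitted level in all gated nuclei (median −0.52). The 3 that fell in the inner-poor nuclei, beside 8.23% of all genes, were Rcvrn, Pdc and Guca1a. None of the 3 passed without 18-month replicate 3, where 0 of 11 did. Pdc, encoding phosducin, which binds the transducin beta and gamma subunits, gave 1105, 8098 and 5209, then 973, 2391 and 1322 normalised CPM in all gated nuclei. Replicate 1 was again low at both ages. It fell by 1.45 ± 0.37 in the inner-poor nuclei (adjusted p = 0.00581). Rcvrn (recoverin) gave 448, 4121 and 2414, then 335, 1507 and 759, and fell there by 1.33 (adjusted p = 0.00443). Sag, whose promoter is shown above, gave 2384, 7902 and 6098, then 3298, 5517 and 2601. Its ages overlapped and its log2 difference was −0.52 ± 0.61 in all gated nuclei and −0.54 in the inner-poor nuclei (adjusted p = 0.38), so no change of arrestin was detectable.

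Genes of the discs and outer segment had lower fitted levels too. Of the 13 outside the gate, 11 had a lower fitted level in all gated nuclei (median −0.68). In the inner-poor nuclei 7 fell, beside 8.23% of all genes, against 2 without 18-month replicate 3 and 6 without 3-month replicate 1. Prph2 and Rom1 encode the tetraspanins of the disc rim, and Rom1 is a gate gene. Prph2 gave 1404, 5555 and 3686 normalised CPM at 3 months and 1429, 1940 and 1095 at 18 months in all gated nuclei. The replicate 1 libraries were alike (log2 difference 0.03), and the others differed by −1.63. Prph2 in the inner-poor nuclei gave 3142, 7406 and 5605, then 2085, 2442 and 2016, without overlap, and fell by 1.22 ± 0.36 (adjusted p = 0.0153). Rp1, an axonemal microtubule protein of the outer segment, fell there by 0.98 (adjusted p = 0.035). Prph2 and Rp1 did not pass without 18-month replicate 3 (adjusted p = 0.0845 and 0.213). Cdhr1, the photoreceptor cadherin, gave 240, 498 and 348, then 188, 232 and 178, and Crb1, a Crumbs polarity protein, gave 216, 327 and 205, then 134, 165 and 121. Both had every 18-month library below every 3-month library before and after the selection, and fell by 1.08 and 0.94 (adjusted p = 0.00322 and 0.00697). Cdhr1 passed with each of the 2 libraries left out, and Crb1 did not without 3-month replicate 1 (adjusted p = 0.0542). Tulp1 did not pass (−0.82, adjusted p = 0.0624).

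Among the retinoid genes Rbp3 separated the ages in both sets of nuclei. Its protein carries retinoids between photoreceptors and the pigment epithelium. Rbp3 gave 940, 1574 and 1056 normalised CPM at 3 months and 551, 513 and 345 at 18 months in all gated nuclei, a log2 difference of −1.34 ± 0.39 (adjusted p = 0.932). In the inner-poor nuclei it gave 1872, 2096 and 1610, then 727, 633 and 396, and fell by 1.62 ± 0.30 (adjusted p = 0.000119), and also without 18-month replicate 3 (by 1.48, adjusted p = 0.00956). No 18-month library reached a 3-month library in either set. In all gated nuclei that was a condition of the rule that also takes Rbp3 below, so it is no separate support. Rdh12, the retinol dehydrogenase of the inner segment, fell by 1.09 in the inner-poor nuclei (adjusted p = 0.0057), and did not pass without 18-month replicate 3 (adjusted p = 0.0647). These 2 were the members called among 7 tested there, where 8.23% of all genes fell. In all gated nuclei 6 of 8 had a lower fitted level (median −0.44).

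**Figure D3:**
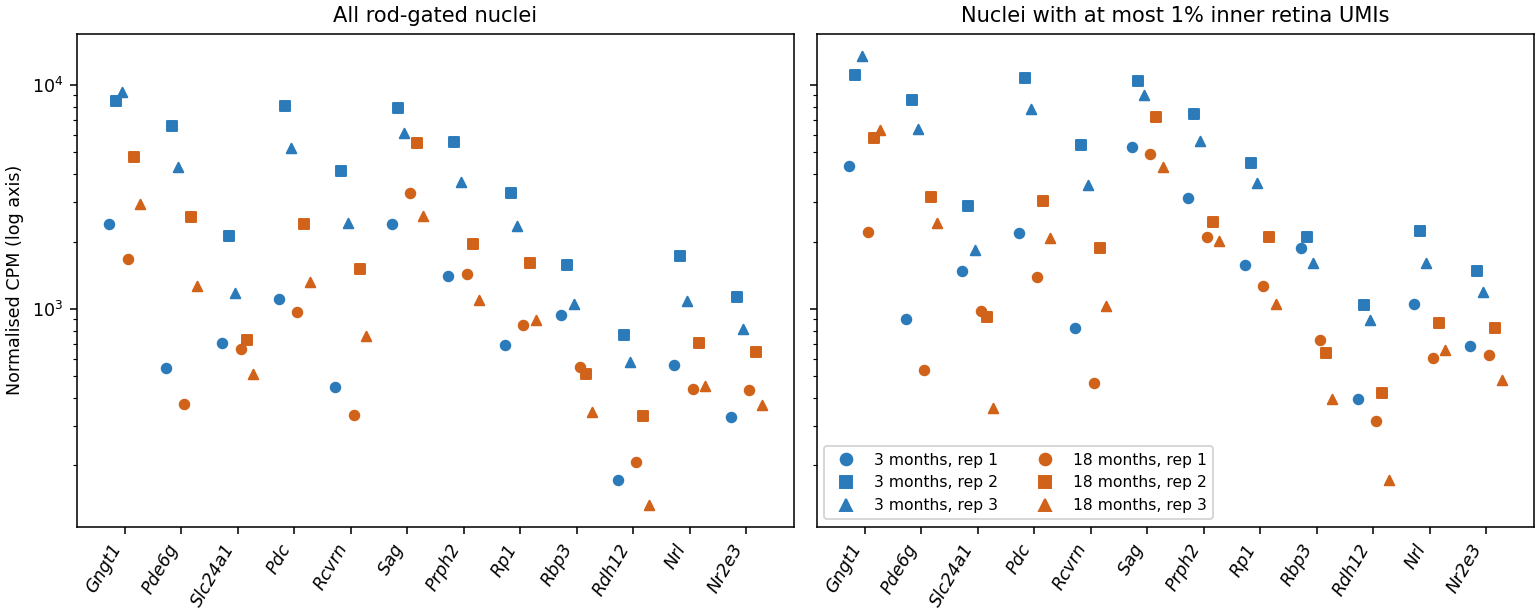
Normalised CPM on a log axis of 12 rod genes in each library, in all rod-gated nuclei (left) and in inner-poor nuclei (right), with 3-month libraries in blue and 18-month libraries in orange. Circles, the replicate 1 libraries, lie low for Pde6g and Rcvrn at both ages, and for Rbp3 all blue points lie above all orange points in both panels. In the left panel this was a condition of the rule that also takes Rbp3 below.

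Of the 9 transcription factors of the rod programme outside the gate, 5 had a lower fitted level in all gated nuclei (median −0.21), as had 7374 of all 13785 genes. In the inner-poor nuclei 3 fell, beside 8.23% of all genes, or 2 without 18-month replicate 3. Nrl, the leucine zipper factor that sets rod identity and a gate gene, gave 562, 1716 and 1089, then 438, 706 and 452 normalised CPM in all gated nuclei. These values describe a gene that chose the nuclei. Neurod1, a basic helix-loop-helix factor kept in adult photoreceptors, fell by 1.09 (adjusted p = 0.00371), and Rax and Prdm1 were the other two. Crx gave 299, 484 and 366, then 366, 307 and 180 in all gated nuclei and did not pass (−0.51 in the inner-poor nuclei, adjusted p = 0.189).

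Genes of the synapse had differences in both directions. Of 24 genes of the rod ribbon synapse, 15 had a higher and 9 a lower fitted level in all gated nuclei (median 0.20), and 4 were higher at 18 months without overlap, against 4.08% of all genes: Dmd, Cacnb2, Rims2 and Syt1. Dmd, whose short retinal products sit at the photoreceptor terminal, gave 1908, 1761 and 1821 normalised CPM, then 3449, 3298 and 2457. Cacnb2, a beta subunit of the presynaptic calcium channel, gave 758, 588 and 528, then 1319, 1126 and 906. Neither passed the test in the inner-poor nuclei (0.54 and 0.73, adjusted p = 0.309 and 0.0754). There, 1 gene of the list rose and 3 fell, beside 5.22% and 8.23% of all genes. The gene that rose was Erc2, an active zone scaffold, by 1.01 (adjusted p = 0.00602). The 3 that fell were Slc17a7, the vesicular glutamate transporter (by 0.80), Vamp2, the vesicle SNARE (by 0.71), and Lrit1, a leucine-rich repeat protein (by 1.06), at adjusted p of 0.032, 0.0419 and 0.00395. Slc17a7 did not pass without 18-month replicate 3, nor Slc17a7 and Vamp2 without 3-month replicate 1.

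Of 13 channels and pumps, 9 had a lower fitted level (median −0.22). In the inner-poor nuclei 5 fell, beside 8.23% of all genes, and 0 rose, against 3 that fell without 18-month replicate 3. Atp1b2, a beta subunit of the sodium pump, gave 272, 493 and 365 normalised CPM in all gated nuclei at 3 months and 211, 264 and 216 at 18 months. Its ages did not overlap, and it fell in the inner-poor nuclei by 1.04 (adjusted p = 0.00424). Without both libraries its log2 difference was −0.85. Kcnv2, a modifier subunit of the rod potassium current, fell there by 0.77 (adjusted p = 0.0239), and did not pass when either of the 2 libraries was left out.

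Of 32 genes of the connecting cilium, 19 had a higher and 13 a lower fitted level (median 0.09). In the inner-poor nuclei 3 of 30 rose and 3 fell, where 5.22% and 8.23% of all genes did, so the counts lie near those of all genes. Rpgr, the GTPase regulator of the cilium, gave 166, 106 and 115, then 250, 171 and 185 normalised CPM in all gated nuclei, without overlap, and rose in the inner-poor nuclei by 0.73 (adjusted p = 0.0278). Bbs9, a subunit of the BBSome, gave 361, 289 and 252, then 756, 567 and 410, and rose by 0.74 (adjusted p = 0.0476). Ift140 was the other that rose, by 0.99 (adjusted p = 0.0164). Unc119, a carrier of lipid-modified transducin, fell by 0.89 (adjusted p = 0.0403), and Kif3a, a motor of intraflagellar transport, by 0.81 (adjusted p = 0.0424). Bbs9, Unc119 and Kif3a did not pass without 18-month replicate 3.

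Rod nuclei in the mouse carry an inverted chromatin order, with heterochromatin at the centre. Of 18 tested genes of the lamina and heterochromatin, 12 had a lower fitted level (median −0.23), as had 7374 of all 13785 genes. In the inner-poor nuclei 2 of the 18 fell, beside 8.23% of all genes, so the count lies near that of all genes. They were Hmgb2 and Hmgb1, which encode high-mobility-group DNA-binding proteins. Hmgb2 gave 91.0, 510 and 375, then 66.0, 170 and 90.9 normalised CPM in all gated nuclei. Its ages overlapped through replicate 1. It fell by 1.55 ± 0.27 in the inner-poor nuclei (adjusted p = 2.54e-05), and Hmgb1 by 0.96 (adjusted p = 0.00976). Without 18-month replicate 3 Hmgb2 passed (adjusted p = 0.00384) and Hmgb1 did not (0.0711).

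Genes of energy metabolism and translation had lower fitted levels nearly throughout. Of 80 nuclear genes of oxidative phosphorylation, 79 were lower in all gated nuclei (median −0.87), of 77 genes of the cytosolic ribosome 77 (median −0.96), and of the 13 mitochondrially encoded genes 13 (median −0.83). Over all genes 7374 of 13785 had a lower fitted level there. In the inner-poor nuclei 56 of the 80 and 66 of the 77 fell and 0 rose, beside 8.23% of all genes that fell. Without 18-month replicate 3 the counts were 39 and 34, beside 4.38% of all genes. Without 3-month replicate 1 they were 30 and 43, beside 5.81%. The 13 mitochondrially encoded genes count toward the mitochondrial limit that chose the nuclei, so no count of calls is given for them. Ndufa4, a small subunit of the respiratory chain, gave 375, 3029 and 1840, then 289, 1097 and 775 normalised CPM in all gated nuclei and fell in the inner-poor nuclei by 1.01 (adjusted p = 0.0204, or 0.0596 without 3-month replicate 1). Its replicate 1 libraries were low at both ages, and the ages overlapped. The mitochondrial mt-Co2 gave 3041, 4414 and 2696, then 1906, 1895 and 1892, without overlap, values of a gene that counts toward that limit. Of 20 genes of glycolysis and lactate transport, 17 had a lower fitted level (median −0.70). In the inner-poor nuclei 9 fell, beside 8.23% of all genes, or 2 without 18-month replicate 3, beside 4.38%. Gapdh gave 160, 3533 and 2407, then 143, 1567 and 897 and fell by 1.24 (adjusted p = 0.0064), and Slc16a3, a lactate carrier, fell by 1.63 (adjusted p = 0.000444). Without 18-month replicate 3 Slc16a3 passed and Gapdh did not (adjusted p = 0.00593 and 0.0706). In ungated nuclei Gapdh gave 99.9, 982 and 1211, then 87.9, 1160 and 704 CPM, low in the replicate 1 libraries as in gated nuclei, and the part of free RNA in these differences was not tested.

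Chaperones of the endoplasmic reticulum, where membrane proteins of the outer segment are folded, also had lower levels. Of 24 genes, 20 had a lower fitted level (median −0.64). In the inner-poor nuclei 11 fell and 1 rose, where 8.23% of all genes fell and 5.22% rose. Without 18-month replicate 3 the counts were 10 and 1. Calr, the calcium-binding chaperone calreticulin, gave 157, 275 and 192, then 89.2, 92.9 and 114 normalised CPM in all gated nuclei, with no overlap. The lack of overlap was a condition of the rule that also takes Calr below. Calr fell in the inner-poor nuclei by 1.54 (adjusted p = 9.7e-06). Pdia4, P4hb and Canx, which oxidise disulphides or hold glycoproteins during folding, were also lower in every 18-month library and fell by 1.14, 1.21 and 0.84 (adjusted p = 0.00441, 0.00257 and 0.0184), of which Canx did not pass without 3-month replicate 1 (0.055). Hspa5, the chaperone BiP, fell by 1.46 (adjusted p = 7.14e-05). The gene that rose was Ern1, which encodes the stress sensor IRE1, by 0.75 (adjusted p = 0.0413). Of 22 antioxidant genes, all had a lower fitted level (median −0.49). In the inner-poor nuclei 8 fell, beside 8.23% of all genes (3 without 18-month replicate 3). Among them was Gpx4, the lipid peroxide reductase, by 0.89 (adjusted p = 0.0259), a call lost without that library. Of the injury response list 10 of 24 genes were counted highly enough to test, 6 of them with a higher fitted level (median 0.37). Stat3 and the MHC class I gene H2-K1 rose in the inner-poor nuclei by 0.92 and 1.05 (adjusted p = 0.019 and 0.0494), and H2-K1 stood at only 7.45 to 25.6 normalised CPM and did not pass without 18-month replicate 3.

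**Figure D4:**
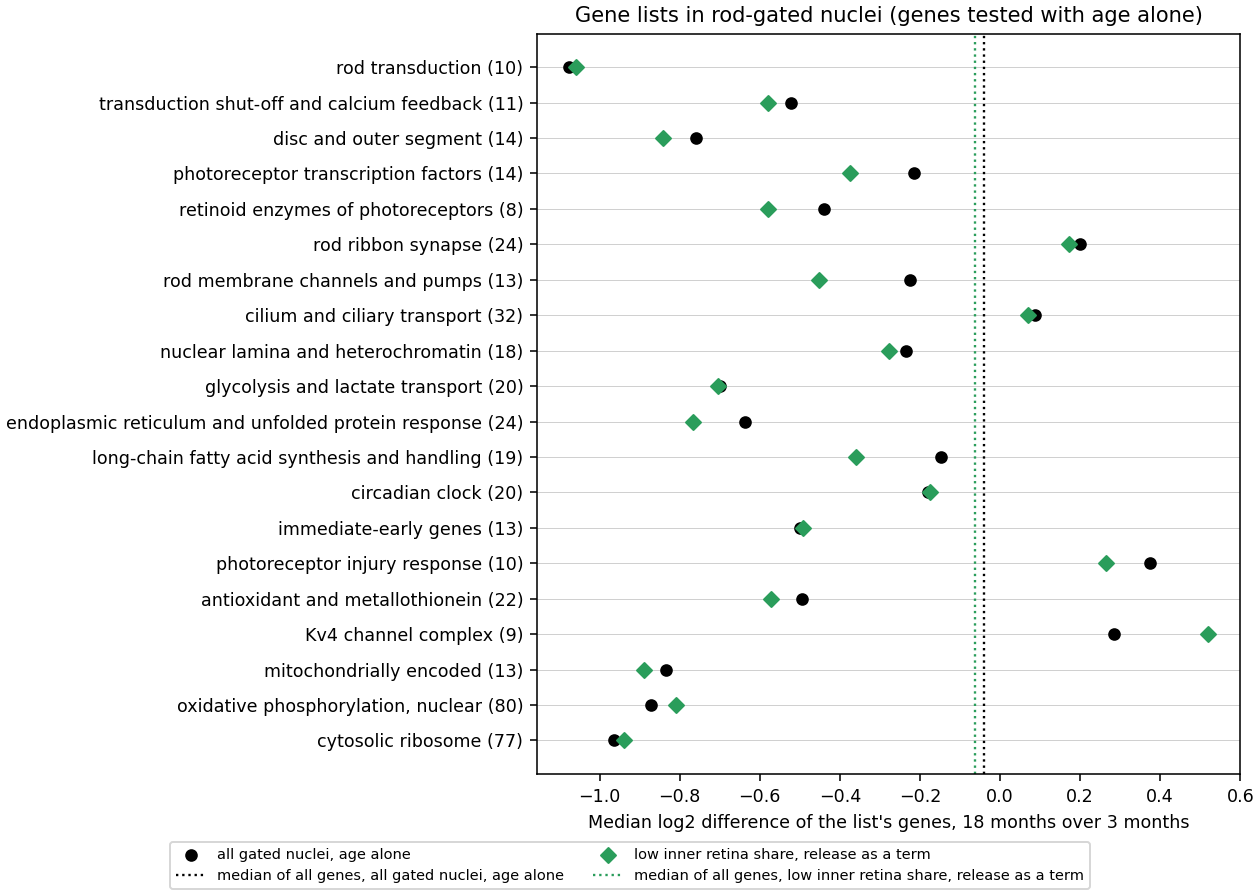
Median log2 difference, 18 months over 3 months, of the genes of 20 lists in rod-gated nuclei, for all gated nuclei with age alone (black circles) and for inner-poor nuclei with the release as a term (green diamonds). Dotted lines are the medians over all genes tested, −0.04 and −0.06. The transduction, disc and transcription factor lists are drawn with their gate genes, so their place is not ranked. The mitochondrially encoded genes count toward the mitochondrial limit. Among the black circles of the other lists those of the ribosome and oxidative phosphorylation lie lowest. In both fits the lists of the ribbon synapse, cilium, injury response and Kv4 complex lie above 0.

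The genes with the largest changes were taken by a rule from the inner-poor fit: genes outside the gate with a proper name, a mean of 20 CPM or more, and ages that did not overlap in all gated nuclei. The rule left 114 genes that rose and 76 that fell, and 12 of each were taken. The limit of 20 CPM was on the mean over the 6 libraries, so a gene could pass it through 1 age alone. Trim43c, Alpk2, Zbtb8a and Fndc1 had a 3-month mean under 20 normalised CPM, and the hemoglobin genes Hbb-bt, Hba-a1 and Hba-a2, Htra1, Slc39a6 and Tapbp an 18-month mean under it. Among those that fell most were Hbb-bt, Hba-a2, Hba-a1, Hbb-bs, Htra1, Slc39a6, Rbp3, Pigt, Lbh, Calr and Tapbp. The 4 hemoglobin genes are treated separately below. Htra1, a secreted serine protease, gave 31.7, 39.5 and 35.2, then 14.1, 17.0 and 11 normalised CPM in all gated nuclei. The 3 young libraries lay close together, and so did the 3 old ones. It fell in the inner-poor nuclei by 1.80 ± 0.32 (adjusted p = 4.17e-05). Pigt, a subunit of the enzyme that attaches GPI anchors, gave 63.4, 127 and 84.6, then 42.3, 39.1 and 23.4 and fell by 1.60 (adjusted p = 6.33e-06). Slc39a6, a zinc transporter, gave 35.1, 48.9 and 40.9, then 19.2, 17.0 and 19.9, and fell by 1.63 (adjusted p = 0.000236). Tapbp, the tapasin of MHC class I loading, fell by 1.49 (adjusted p = 0.000296).

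Those that rose most were Trim43c, Dpp10, Alpk2, Immp2l, Amy1, Glb1l3, Fndc1, Col4a3, Trim17, Zbtb8a, Col4a4 and Mthfs. Dpp10 (minus strand, chr1:123321471-124045559 in the mm10 annotation GENCODE M21) gave 167, 176 and 161 normalised CPM at 3 months and 322, 360 and 483 at 18 months in all gated nuclei, a log2 difference of 1.21 ± 0.30 (adjusted p = 0.932). Young levels in the inner-poor nuclei were 47.2, 40.7 and 26.5 and the old ones 273, 444 and 396. Dpp10 rose there by 3.38 ± 0.27 (adjusted p = 2.97e-19). In ungated nuclei Dpp10 gave 281, 543 and 459, then 405, 383 and 567 CPM, where the ages overlapped, and the part of inner retina RNA in the levels of all gated nuclei was not tested. In the list of 9 Kv4 channel genes, 7 had a higher fitted level in all gated nuclei (median 0.28). Dpp10 and Kcnip4 were the 2 of 7 that rose in the inner-poor nuclei, beside 5.22% of all genes. Kcnip4 was one of the genes used to choose those nuclei.

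Glb1l3 (minus strand, chr9:26817953-26860890) gave 22.9, 35.0 and 27.0, then 117, 107 and 67.5 normalised CPM in all gated nuclei. The log2 difference was 1.77 ± 0.33 there and 1.65 ± 0.24 in the inner-poor nuclei, where it rose (adjusted p = 5.74e-07). Glb1l3, Dpp10, Amy1, Trim17 and Trim43c were among the genes called by DESeq2 in all gated nuclei with age alone. The rule had taken them for ages that did not overlap in the same counts, so these calls are no separate support. Amy1, salivary amylase, gave 147, 114 and 103, then 248, 242 and 279, and Immp2l, a peptidase of the inner mitochondrial membrane, 379, 154 and 156, then 558, 446 and 527. They rose in the inner-poor nuclei by 1.70 and 1.79 (adjusted p = 1.63e-07 and 3.27e-07). Immp2l was already higher in 3-month replicate 1 than in the other young libraries.

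Col4a3 and Col4a4, which encode type IV collagen chains of basement membranes, lie head to head on chromosome 1, Col4a3 on the plus strand from 82586921 and Col4a4 on the minus strand ending at 82586849. Col4a3 gave 69.4, 31.7 and 32.8, then 283, 131 and 87.2 normalised CPM in all gated nuclei. Col4a4 gave 15.5, 24 and 25.1, then 82.1, 56.0 and 41.4. Both genes were highest in 18-month replicate 1 and rose in the inner-poor nuclei by 1.62 and 1.44 (adjusted p = 9.44e-07 and 0.000142), where Col4a3 overlapped between ages through 3-month replicate 1. Trim17, a ubiquitin ligase, gave 28.3, 29.5 and 37.1, then 84.2, 103 and 61.1 and rose by 1.51 (adjusted p = 1.2e-05). Trim43c, a related gene with near-identical copies among which reads could be split, gave 16.9, 6.80 and 8.11, then 146, 55.7 and 26.4, values given as a description. Mthfs rose by 1.44.

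**Figure D5:**
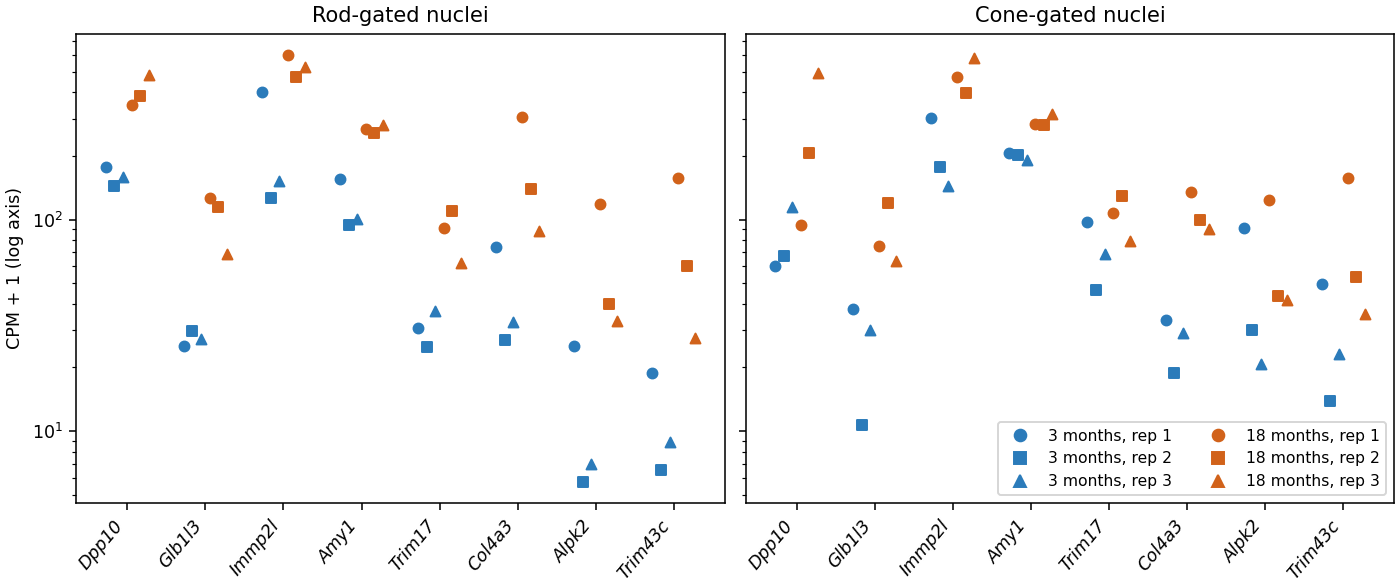
CPM + 1 on a log axis of 8 of the genes that rose, in rod-gated nuclei (left) and cone-gated nuclei (right), by library. The ages do not overlap in the left panel because the rule chose the genes for it. In the right panel, which the rule did not use, they overlap for Dpp10, Trim17, Alpk2 and Trim43c, and no comparison of the panels is drawn from this.

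The age difference in rod-gated nuclei was tested against that in the 4171 cone-gated nuclei of the same libraries. Of 13072 genes, 4 were called (0.0306%), 1 with a larger (0.00765%) and 3 with a smaller difference in rod-gated nuclei (0.0229%), and 731 had an unadjusted p under 0.05. Glb1l3 had a log2 difference of 1.66 in cone-gated nuclei and Dpp10 of 1.64, and for neither did the difference from rod-gated nuclei pass the test. Cone-gated nuclei share each library's free RNA, and a missed threshold does not show that the 2 classes behave alike. Alpk2, an alpha kinase gene, gave 24.2, 4.76 and 6.01, then 117, 38.8 and 32.1 CPM in rod-gated nuclei and 90.0, 29.1 and 19.8, then 122, 42.5 and 40.6 in cone-gated nuclei. The young rod-gated libraries were the low group. The age difference in rod-gated nuclei exceeded that in cone-gated nuclei by 1.80 ± 0.26 on the log2 scale (adjusted p = 0.043). That call was lost when barcodes rich in hemoglobin were left out (adjusted p = 0.135).

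The other 3 interaction calls were hemoglobin genes, and they rested on single barcodes. Hba-a1, Hbb-bs and Hba-a2, the globins of red blood cells, gave interactions of −4.84 ± 0.54, −4.19 ± 0.57 and −4.89 ± 0.73 (adjusted p = 0.00755, 0.0317 and 0.043). In the 3-month libraries the 5 barcodes richest in hemoglobin held 98.9%, 99.0% and 95.3% of the hemoglobin UMIs of rod-gated nuclei, against 41.7%, 15.7% and 7.63% at 18 months. A barcode of 3-month replicate 2 held 3805 hemoglobin UMIs among 4520. In all, 11 rod-gated barcodes and 1 cone-gated barcode had 10 or more such UMIs. Without them the interaction test called 0 genes, with 728 at an unadjusted p under 0.05.

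The share of nuclei that passed the rod gate was 16.4%, 47.0% and 29.4% at 3 months and 19.3%, 33.8% and 19.9% at 18 months (30.9% ± 15.3 and 24.3% ± 8.21, SD, n = 3). The ages overlapped, and an exact two-sided permutation test gave p = 0.7 (0.8 adjusted over 3 measures), where 3 against 3 libraries cannot give less than 0.1. The difference was 2.87 percentage points between the replicate 1 libraries and −11.3 between the others, so the 2 pairs went opposite ways. This share counts nuclei that pass a gate and not rods of the retina. Median UMIs per gated nucleus were 1096 ± 248 and 1051 ± 175 (SD, n = 3, exact permutation p = 0.8). The median mitochondrial share of gated nuclei was 2.99%, 2.90% and 1.72% at 3 months and 1.72%, 1.41% and 1.35% at 18 months. These medians are a description, since the limit of 5% helped choose the nuclei, and with no limit the difference between the means went from −1.05 to −2.19 percentage points. The mitochondrial limit removed 7647 barcodes before the gate, more of them from 3-month replicates 1 and 2.

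The share of gated UMIs in the 30 rod genes, a measure the gate did not use, was compared between ages as a single value. It was 5.99% ± 2.57 at 3 months and 3.36% ± 1.13 at 18 months in all gated nuclei, and the ages overlapped (difference −2.63 points, exact permutation p = 0.2). In the inner-poor nuclei it was 8.43% ± 2.13 and 4.84% ± 0.752, without overlap (difference −3.59 points, exact permutation p = 0.1, the smallest p that 3 against 3 can give). In these nuclear data fewer rod RNA molecules per rod and a smaller share of rod RNA in a mixed barcode cannot be told apart.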

How the data were processed

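Each of the 6 libraries was deposited as a filtered matrix of UMI counts per gene and barcode, made with Cell Ranger 7.1.0 (replicate 1 of each age) or 7.2.0 (the others), per the file headers, on mm10, per the submitters' processing notes, which also name Seurat; whether introns were counted or doublets removed is not given in the sources used here. Barcodes were kept at 300 or more genes and at most 5% mitochondrial UMIs, and no doublet caller was run, since doublets of rods and other cells are part of what the exclusion genes remove. The lowest barcode held 500 UMIs, and the files held between 15905689 and 29340705 UMIs each. Counts of the gated nuclei were summed per library. Replicates here are libraries, not nuclei.

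The sums were tested with edgeR 4.0.16 (filterByExpr, TMM, glmQLFit and glmQLFTest) in R 4.3.3, fitting age alone, with Benjamini-Hochberg adjustment over all genes tested, and called at an adjusted p of 0.05 or less. The difference between rod-gated and cone-gated nuclei was the interaction of age and class with library as a term. Shares and medians were compared by exact two-sided permutation tests. Comparison classes were gated likewise: cones on 3 of 10 genes, rod bipolar cells on Prkca and 3 of 8, Müller glia on 4 of 10, and nuclei passing 2 gates entered no comparison class. On simulated counts with a dispersion of 0.01 the test recovered 83 of 99 genes changed 2-fold and 97 of 97 changed 4-fold.

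The members, gene lists and tests were chosen with earlier results of these data known. Named genes were to be the 12 per direction with the largest difference among called genes with no overlap between ages, at least 20 CPM, at least 20% of the level of the highest gated class, and no gate gene, sex-linked transcript or unnamed gene model, first in the age-only fit and then with the release as a term. No gene qualified in either, so the same rule was applied to the inner-poor nuclei with the release as a term, a choice made after seeing the data. In each list the 4 members with the highest level were also eligible. Fold changes are log2 values from edgeR. Alternatives were other gates, limits, scalings and tests (DESeq2 1.42.0), the release or replicate number as a term, and leaving out libraries or barcodes. Promoters came from RefSeq (GRCm38.p6) and gene positions from GENCODE M21, matched for 32158 identifiers. A few genes of the lists and of the rule are not reported here.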

Additional observations from a re-analysis of the deposited data

Results flagged for a closer look

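For 4 genes the age difference in rod-gated nuclei differed from that in cone-gated nuclei by the interaction test. The interaction was 1.80 on the log2 scale for Alpk2, −4.84 for Hba-a1, −4.89 for Hba-a2 and −4.19 for Hbb-bs. The hemoglobin values rest on a few barcodes of the 3-month libraries. None of the 4 was called without the 11 rod-gated barcodes and 1 cone-gated barcode that held 10 or more hemoglobin UMIs.

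Barcodes above the mitochondrial limit that met the gene conditions of the rod gate were not used in any comparison. They numbered 1226, 1329 and 270 in 3-month replicates 1, 2 and 3 and 238, 145 and 59 in 18-month replicates 1, 2 and 3, or 3267 in all. The 30 rod genes held 5.36%, 8.58% and 6.81% of their UMIs at 3 months and 4.0%, 5.34% and 3.91% at 18 months, in every library more than in the rod-gated nuclei that were used. In 3-month replicate 1 they outnumbered the 862 nuclei used.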

How the results depend on the processing

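The count of genes called between ages in rod-gated nuclei was 0 in the age-only fit and under other gates, limits, scalings and filters, and with the release as a term. It was 25 with DESeq2, 5 in the 7.2.0 libraries alone, 0 to 5 when 1 library was left out (5 without 3-month replicate 1, 4 of them hemoglobin genes), 280 with the release as a term and without 18-month replicate 3, 1441 in inner-poor nuclei with the release as a term, and, in the same fit, 928 without 18-month replicate 3, 1505 when 3-month replicate 1 was left out and 1915 in the absence of both. In the fit without both libraries the release term takes up 18-month replicate 1. Only 18-month replicate 2 then informs the 18-month side, so the last of these counts is no measure of support. The replicate block called 0 genes, with 1808 at an unadjusted p under 0.05 and a smallest adjusted p of 0.0648. Deviations of libraries with the same number correlated at 0.646, 0.740 and −0.0531 for numbers 1, 2 and 3, so 1 of 3 pairs was not above 0.1 and the age-only fit has no block. Replicate 1 of each age also shares the Cell Ranger release, and the release was fitted as a term of its own.

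The interaction count was 4, and became 65 with no filter on low counts, 0 with a gate of 5 genes and no exclusion UMI, 10 in inner-poor nuclei, 0 without barcodes rich in hemoglobin, and 0 to 29 when 1 library was left out (29 without 18-month replicate 1, and 0 without 3-month replicate 2 or 18-month replicate 2). The difference in gated share turned to 1.40 points without 3-month replicate 2 (range −13.9 to 1.40). The difference in median UMIs turned to 5.33 with the gate of 5 genes, 96.0 with no mitochondrial limit, 99.0 in inner-poor nuclei and 38.8 in the 7.2.0 libraries, with a range of −119 to 99.1 when 1 library was left out. The mitochondrial difference of −1.05 points ranged from −1.45 to −0.819 when 1 library was left out and was −2.19 with no mitochondrial limit. Over 67 genes and 1741 pairs of gene and alternative, 1 difference turned sign, Sag at 0.0874 with the release as a term and without 18-month replicate 3. The settings on inner-poor nuclei held only 45992 UMIs of 18-month replicate 3. The cause of these changes was not tested.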

Other observations

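Of 20 tested genes of the circadian clock, 14 had a lower and 6 a higher fitted level at 18 months in all rod-gated nuclei, with a median log2 difference of −0.18 beside −0.04 over all genes tested. In the inner-poor nuclei 1 of 18 fell, Bhlhe41, a repressor of the clock loop, and 0 rose, no larger a share than the 8.23% of all genes that fell in that fit. The labels give no hour of collection. Of 19 genes of long-chain fatty acid synthesis and handling, 14 had a lower fitted level (median −0.15). Of 15 tested in the inner-poor nuclei 2 fell, beside 8.23% of all genes, and 0 rose. The 2 were Elovl4, which extends very long chain fatty acids, and Tecr, the reductase of the same elongation cycle. All 13 immediate-early genes tested had a lower fitted level (median −0.50). In the inner-poor nuclei 2 of 12 fell, Ier3 and Btg2, beside 8.23% of all genes, or 0 of 13 without 3-month replicate 1.

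The 15 genes outside the gate with the highest ratio of level in rod-gated nuclei to the highest of the 3 comparison gates, among those with at least 200 CPM in every library, held 1 rod gene, Slc24a1, at a ratio of 1.46. The others were mostly long neuronal genes such as Snhg11, Lingo2 and Robo1, at ratios of 1.68, 1.65 and 1.62. This ratio is a description, since the gate chose the nuclei.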
